A study of Mus musculus with 13 samples.

Results

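The transcripts of cytoplasmic ribosomal protein genes were measured in bone marrow progenitors of mice that overexpress OBF1, a B cell coactivator that works with the octamer-binding factors Oct1 and Oct2. The genes were taken by symbol, as those beginning with Rpl or Rps and a digit and the stalk genes Rplp0 to Rplp2, without the Rps6k kinases. The rule found 50 genes among the 18193 genes that have a probe set with 1 gene symbol on the array. Of these, 22 encode proteins of the small 40S subunit, 23 proteins of the large 60S subunit and 2 proteins of the ribosomal stalk (Rplp0 and Rplp2). The other 3 symbols are not ribosomal proteins, namely Rps19bp1, which encodes a protein that binds Rps19, Rpl7l1, which encodes a nucleolar relative of Rpl7, and the pseudogene Rps15a-ps6. The 47 ribosomal proteins include 5 paralogs, Rpl3l, Rpl22l1, Rpl39l, Rps4l and Rps27l. The reference annotation holds 90 protein-coding symbols that meet the rule, of which 48 were measured by a probe set naming a single gene. Rplp1, Rpl3, Rpl5, Rpl10, Rpl10l and Rps27a are among those without such a probe set.

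The cells were EPLMs, early progenitors with lymphoid and myeloid potential, sorted from bone marrow by surface markers that included B220+, c-kit+, CD93+ and NK1.1-. They came from 3 WT mice and 3 BCS mice, littermates of a B6CF1 x C57BL/6 background aged 7 weeks, and the RNA of each mouse went onto 1 Mouse 430v2 GeneChip. BCS mice carry a transgene in which the murine Eμ enhancer and a VH promoter drive an HA-tagged human OBF1 cDNA, and these elements can also act in T cells. Which transgenic line was arrayed is not given in the sources used here, so the group may stand for 1 insertion. The values are GCRMA intensities, which are on a linear scale, and the 6 arrays share 1 distribution with a median of 20, so a change common to all genes would not be visible. Changes are given as log2(intensity + 1) in BCS minus WT, and the words rose and fell are kept for genes at a limma adjusted p under 0.05.

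Ribosomal proteins are made in near-equal numbers and built with ribosomal RNA into the 40S subunit, which reads the message, and the 60S subunit, which joins the amino acids. Most of their messages begin with a C followed by a run of pyrimidines, the 5′ TOP motif, through which mTORC1 signalling adjusts their translation. Translation of these messages can thus change while their amount does not, and an array of total RNA measures the amount only. In blood formation the family is known for Rps19 and other genes whose loss of 1 copy causes Diamond-Blackfan anemia, and for Rpl22, which is needed in developing T cells.

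The starts of 43 of the 50 genes were found in the RefSeq promoter table (GRCm38.p6, 250 bases before to 50 bases after the annotated start). The annotated start of 8 of these 43 genes (18.6%) was a C in a run of at least 5 pyrimidines, against 467 of 17492 genes (2.67%) in the whole table. They are shown here because they carry the feature that the family is known for, and the capitals mark the pyrimidine run from the annotated start onward. Each sequence holds 30 bases before and 20 bases after the start, on the strand of the gene.
Rpl14 (chr9:120571487-120571536, plus strand): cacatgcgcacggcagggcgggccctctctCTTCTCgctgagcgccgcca
Rpl35 (chr2:39005112-39005161, minus strand): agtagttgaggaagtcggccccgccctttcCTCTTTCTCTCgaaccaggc
Rpl38 (chr11:114668550-114668599, plus strand): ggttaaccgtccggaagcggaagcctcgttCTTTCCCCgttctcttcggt
Rplp2 (chr7:141447621-141447670, plus strand): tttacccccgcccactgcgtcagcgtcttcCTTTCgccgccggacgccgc
Rps10 (chr17:27635225-27635274, minus strand): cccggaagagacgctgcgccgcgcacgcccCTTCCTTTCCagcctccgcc
Rps18 (chr17:33955646-33955695, minus strand): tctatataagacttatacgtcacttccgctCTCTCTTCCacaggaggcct
Rps27 (chr3:90213629-90213678, minus strand): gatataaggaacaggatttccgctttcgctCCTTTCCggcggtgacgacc
Rps6 (chr4:86857348-86857397, minus strand): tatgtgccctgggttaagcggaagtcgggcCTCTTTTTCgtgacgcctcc
The run spanned 5 bases in Rplp2 and 11 bases in Rpl35. An annotated start that is a few bases off would miss the motif, so the count is of these letters and not of TOP messages.

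The same windows were searched on both strands for the octamer ATGCAAAT, the site of the factors that OBF1 joins, and for CCGGAAG, the core bound by ETS factors. A gene was counted if any of its windows matched. The octamer was found for 0 of the 43 ribosomal protein genes and for 332 of all 17492 genes (1.9%). The ETS core was found for 20 of the 43 genes (46.5%), against 2265 of 17492 genes (12.9%). A match is a description of the letters in these windows, and the lack of one does not speak for sites elsewhere.

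None of the 50 genes rose or fell in BCS EPLMs. Of all 18193 genes, 3.15% rose and 4.7% fell by the same limma test. At an unadjusted p under 0.05, limma gave 5 of the 50 genes (Rpl12, Rpl14, Rps10, Rps19bp1 and Rps27l), against 23.0% of all genes. The per-probe-set test named in the study's methods gave 0 of 50 genes after Benjamini-Hochberg adjustment and 2 at an unadjusted p under 0.05. The lowest limma adjusted p of a member was 0.154, for Rps19bp1. The median log2 change of the 50 genes was 0.003, with 26 above 0 and 24 below 0, and the median of all genes was 0.008. The 40S genes had a median of -0.001, the 60S genes of 0.007 and the stalk genes of -0.003. No gene of the 50 had group medians 2-fold apart.

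The fitted changes had narrow intervals for most of the genes, which were read by very bright probe sets. The 95% interval of the log2 change lay between -0.2 and 0.2 for 33 of the 50 genes and between -0.5 and 0.5 for 41. The 34 genes with a mean intensity of at least 10000 had log2 changes from -0.07 to 0.13 with a median absolute change of 0.03, and 33 of these 34 had an interval within 0.2 of 0. Among all 586 genes of that brightness the median absolute log2 change was 0.12, the range was -2.42 to 1.47, and 43 rose and 54 fell (16.6%). The median SD between mice of a group was 0.044 on the log2 scale for the 34 bright ribosomal protein genes and 0.08 for the 586 genes. The 10 genes between 100 and 10000 varied more, with a median SD of 0.25, and the 6 genes under 100 had a median SD of 0.212. The 34 bright probe sets lay at percentiles 98.6 to 100 of the array, up to an intensity of 56217. Further probe sets of the same genes at 100 to 10000 ranged more widely, from -0.21 to 0.73 over 16 probe sets, so the narrow intervals speak for the brightest probe sets only, and the part of their place on the intensity scale was not tested.

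**Figure D1:**
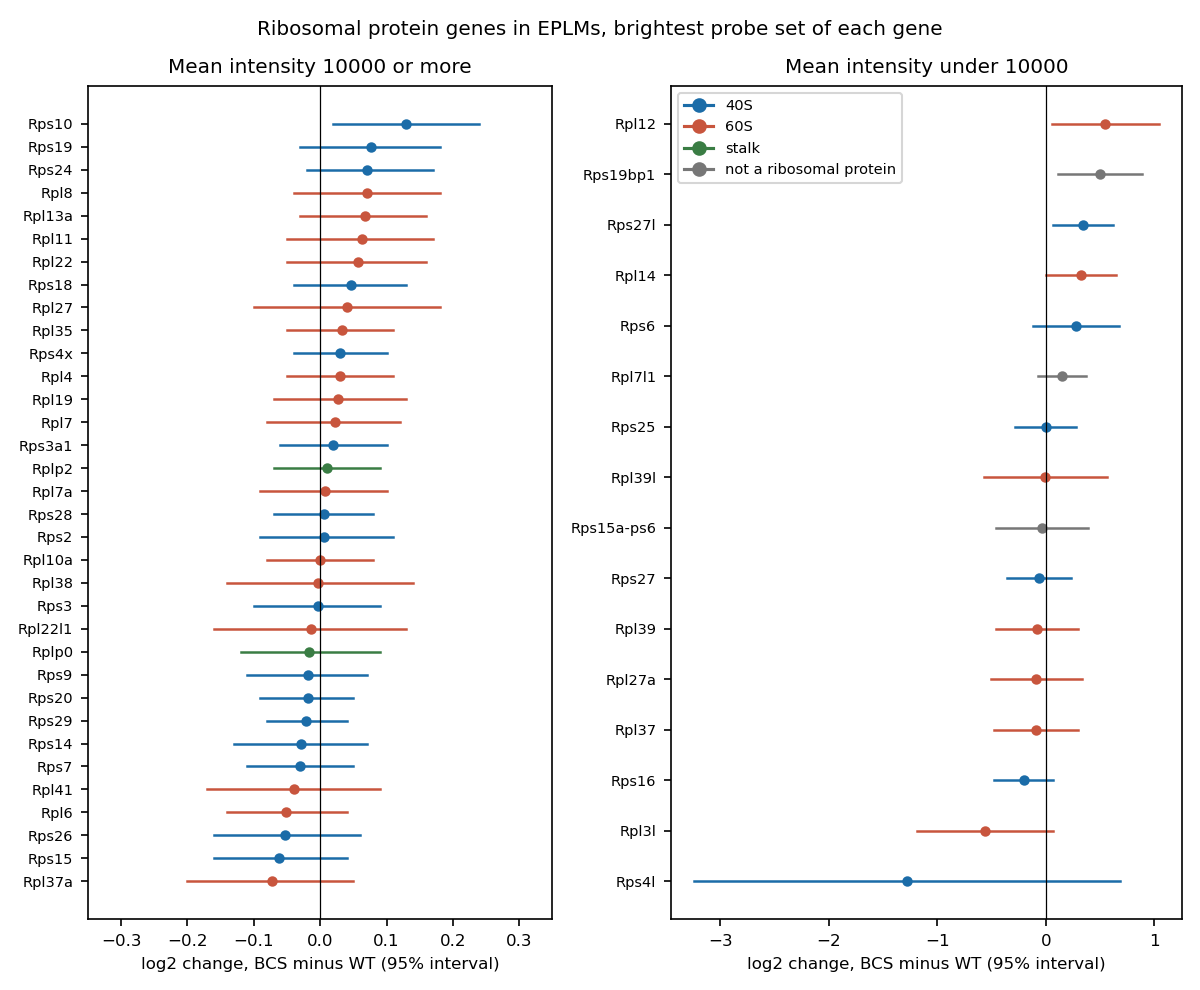
Fitted log2 change of each of the 50 genes, BCS minus WT EPLMs, with its 95% interval, split at a mean intensity of 10000 and colored by subunit. The 34 bright genes on the left lie between -0.07 and 0.13, and the right panel, which has a wider axis, runs from -1.28 for Rps4l to 0.55 for Rpl12.

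**Figure D2:**
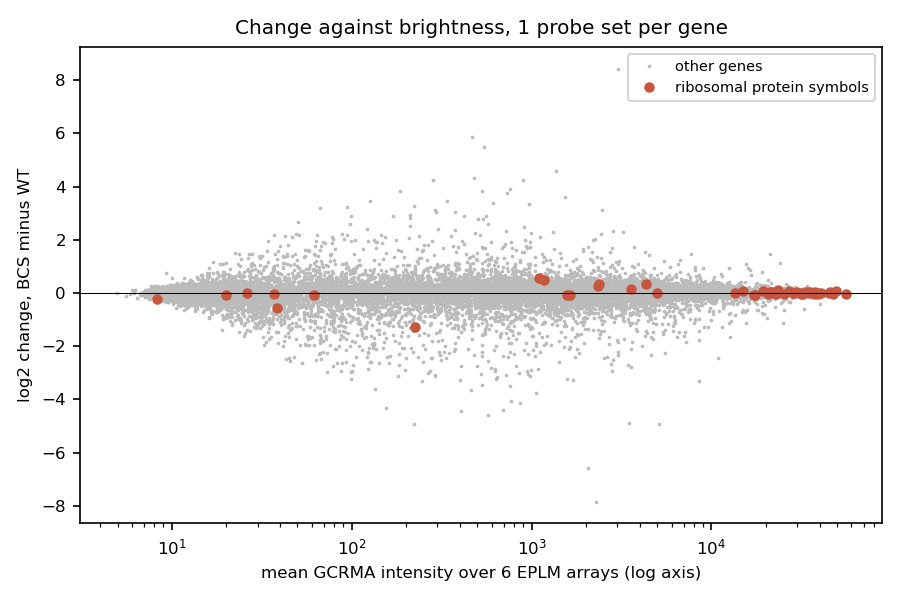
Log2 change, BCS minus WT EPLMs, against the mean intensity over the 6 arrays (log axis) for 18193 genes in gray and the 50 ribosomal protein symbols in red. The bright ribosomal protein genes form a narrow band at 0, in a range of intensity where other genes reach -2.42 and 1.47.

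The stalk genes encode the acidic proteins that recruit the elongation factors and the protein that anchors them. Rplp0, the anchor, had intensities of 41554, 38555 and 37629 in the WT mice and of 39177, 39766 and 37375 in the BCS mice. Rplp2 had 41195, 40835 and 39993 in WT and 39556, 41792 and 41552 in BCS EPLMs. The groups overlapped for both genes, with log2 changes of -0.02 (SE 0.05) and 0.01 (SE 0.03) and limma adjusted p of 0.902 and 0.925. Their 95% intervals ran from -0.12 to 0.09 and from -0.07 to 0.09.

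Rpl12, a 60S protein at the base of the stalk, had the highest fitted change of the 50 genes. Its intensities were 772, 887 and 999 in WT and 912, 1620 and 1451 in BCS EPLMs. BCS replicate 1 lay within the WT range and the other 2 BCS mice above it. The log2 change was 0.55 (SE 0.22, 95% interval 0.06 to 1.04), with a limma adjusted p of 0.214. Without BCS replicate 1 the log2 change was 0.80 with a limma adjusted p of 0.0296.

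Among the other 60S genes, Rpl14 had 2190, 1722 and 2376 in WT and 2298, 2708 and 2852 in BCS EPLMs. Here too BCS replicate 1 lay within the WT range, and the log2 change was 0.33 (SE 0.14, limma adjusted p = 0.267). Rpl27a and Rpl37, among the 5 lowest fitted changes, had log2 changes of -0.09 (SE 0.19) and -0.09 (SE 0.17), with overlapping groups. Rpl11, which with Rpl5 binds the p53 regulator Mdm2 when ribosome assembly is disturbed, had 19936, 18220 and 18800 in WT and 19531, 19908 and 20025 in BCS EPLMs. These groups overlapped, and the log2 change was 0.06 (SE 0.05, limma adjusted p = 0.562). Rpl38, known for its part in the translation of Hox messages, had a log2 change of -0.00 (SE 0.06, 95% interval -0.14 to 0.14).

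Rpl22l1 can stand in for its paralog Rpl22 in the ribosome, and both have been studied in lymphocyte development. Rpl22 had intensities of 29176, 30622 and 28000 in WT and of 29224, 31607 and 30474 in BCS EPLMs. Rpl22l1 had 14197, 12493 and 13897 in WT and 13469, 13897 and 12783 in BCS EPLMs. Both genes overlapped between the groups, with log2 changes of 0.06 (SE 0.05, 95% interval -0.05 to 0.16) and -0.01 (SE 0.06, 95% interval -0.16 to 0.13).

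Of the 40S genes, Rps27l had the highest fitted change. Rps27l, a paralog of Rps27 and a known target of p53, had 3657, 3518 and 4183 in WT and 4073, 4913 and 5510 in BCS EPLMs. BCS replicate 1 was lower than WT replicate 3, so the groups overlapped, and the log2 change was 0.34 (SE 0.12, 95% interval 0.07 to 0.62, limma adjusted p = 0.169). Both further probe sets of Rps27l were close to it, with log2 changes of 0.28 and 0.37. Rps27 itself was measured near the array median, at 18.4, 21.1 and 22.2 in WT and 18.6, 18.9 and 21.3 in BCS EPLMs.

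Rps10 was the bright gene with the highest fitted change and is shown with its pyrimidine start above. Its intensities were 22149, 22902 and 22373 in WT and 23171, 24652 and 25988 in BCS EPLMs. All 3 BCS mice lay above all 3 WT mice, but the log2 change was 0.13 (SE 0.05, 95% interval 0.02 to 0.24, limma adjusted p = 0.203). Rps10 has 6 probe sets, of which the 5 brighter ones had log2 changes from 0.08 to 0.13. The dimmest, at a mean of 115 in WT and 194 in BCS EPLMs, had a log2 change of 0.73 and the lowest limma adjusted p of any member probe set, 0.124.

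Rps19 had 14612, 14302 and 14577 in WT and 15442, 15449 and 14971 in BCS EPLMs. The groups did not overlap, the log2 change was 0.08 (SE 0.05, limma adjusted p = 0.443), and the two-sided exact permutation test gave p = 0.1, the smallest that 3 against 3 mice allow. The gene for its binding protein, Rps19bp1, had 898, 957 and 1029 in WT and 1045, 1529 and 1565 in BCS EPLMs. All BCS mice lay above the WT mice, BCS replicate 1 by the least, and the log2 change was 0.50 (SE 0.17, 95% interval 0.11 to 0.89, limma adjusted p = 0.154). Without BCS replicate 1 it was 0.69, with a limma adjusted p of 0.0263.

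Rps6, the substrate of the S6 kinases, had 2662, 1780 and 1978 in WT and 2666, 2922 and 2130 in BCS EPLMs, with overlapping groups, a log2 change of 0.27 (SE 0.17) and a limma adjusted p of 0.467. Rps26, another Diamond-Blackfan anemia gene, had a log2 change of -0.05 (SE 0.05), and the X-linked Rps4x of 0.03 (SE 0.03). Rps16 read from 6.4 to 10.4 on the 6 arrays, well below the array median of 20, so its log2 change of -0.21 (SE 0.12) carries little signal. Groups that did not overlap were seen for 4 genes in the upward direction (Rps10, Rps19, Rpl7l1 and Rps19bp1) and 2 in the downward direction (Rps15 and Rpl6). Rps15 had 17659, 17417 and 17524 in WT and 16372, 17017 and 17017 in BCS EPLMs, a log2 change of -0.06 (SE 0.04, limma adjusted p = 0.53), and Rpl6 had a log2 change of -0.05 (SE 0.04). Among all genes the groups lay apart in this way for 14.5% in the upward and 14.2% in the downward direction.

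Rps4l, an Rps4 paralog, had the most negative fitted change and the widest spread. Its intensities were 790, 83.4 and 140 in WT and 157, 27.2 and 146 in BCS EPLMs, so WT replicate 1 was far above and BCS replicate 2 far below the other 4 mice. The log2 change was -1.28 (SE 0.87, 95% interval -3.24 to 0.68, limma adjusted p = 0.505), and it was -0.33 without WT replicate 1 and -0.47 without BCS replicate 2. Rpl3l, a paralog of Rpl3 known from striated muscle, had 36.7, 51.2 and 48.7 in WT and 43.2, 32.5 and 19.5 in BCS EPLMs, a log2 change of -0.56 (SE 0.28, limma adjusted p = 0.336). Rpl39l, a paralog known from testis, had a log2 change of -0.00 (SE 0.25) and Rpl39, which lines the exit tunnel, of -0.08 (SE 0.17), both under an intensity of 100.

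**Figure D3:**
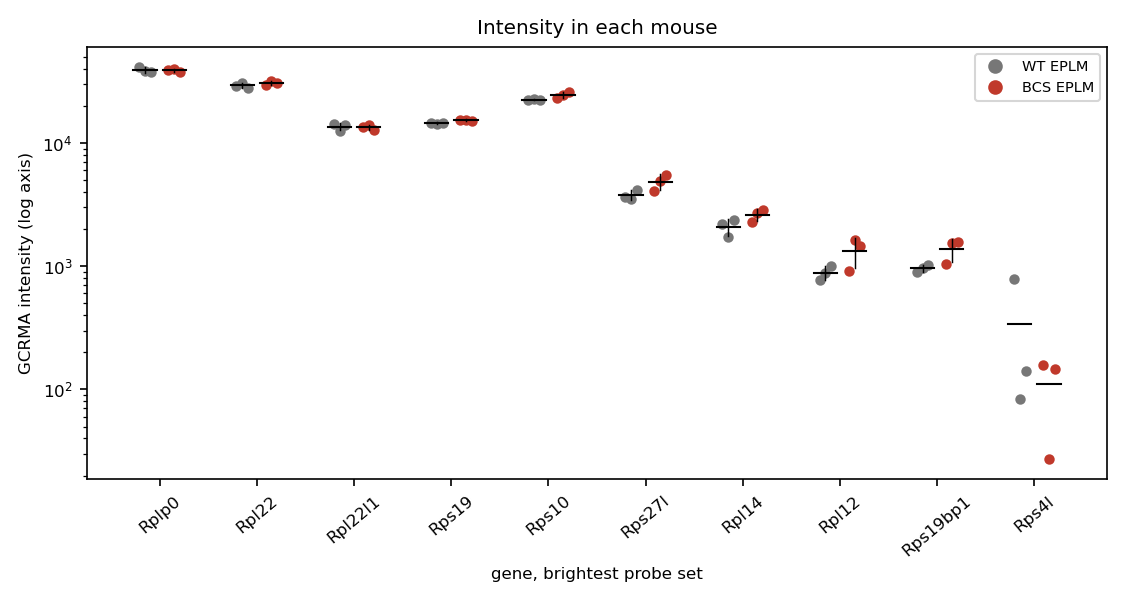
GCRMA intensity (log axis) in each of the 3 WT and 3 BCS mice for 10 of the genes, brightest probe set, with the mean as a line and the SD as a bar, except for Rps4l, whose SD in WT exceeds its mean and is not drawn. Rplp0, Rpl22 and Rpl22l1 overlap between the groups, Rps10 and Rps19 are shifted slightly, and for Rps27l, Rpl14 and Rpl12 BCS replicate 1 lies among the WT mice.

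The median deviation of the 50 genes from the mean of the 6 arrays was -0.009, -0.017 and 0.001 on the log2 scale in the WT mice and -0.02, 0.017 and 0.028 in the BCS mice. BCS replicate 1 was the lowest of the 6 and BCS replicates 2 and 3 the highest, so the groups overlapped. For the 60S genes the BCS medians were -0.02, 0.025 and 0.046. Across the genes between 100 and 10000 in intensity, 7 of 10 had a log2 change above 0, with a median of 0.21, and 4 of 10 were at an unadjusted limma p under 0.05. Of all 7689 genes in that range, 53.3% had a log2 change above 0, with a median of 0.02, and 35.7% were at an unadjusted p under 0.05. Leaving out BCS replicate 1 raised the count of genes that rose from 0 to 2 of 50 (Rpl12 and Rps19bp1). In that fit 2241 of all 45037 probe sets passed, in either direction.

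**Figure D4:**
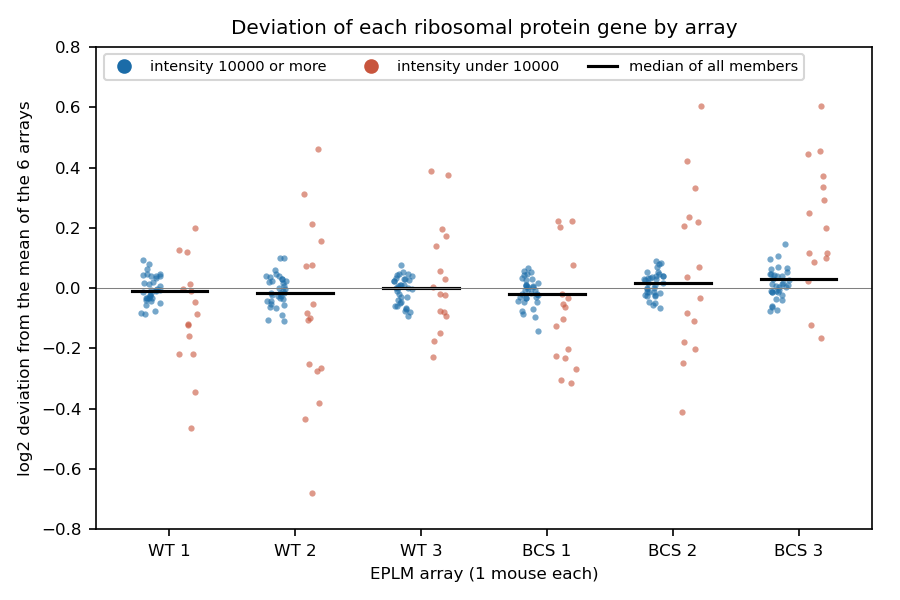
Log2 deviation of each ribosomal protein gene from its mean over the 6 EPLM arrays, by array, with genes of intensity 10000 or more in blue, dimmer genes in red and the median of all 50 as a line (3 points fall outside the axis). The array medians run from -0.02 in BCS replicate 1 to 0.028 in BCS replicate 3.

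Probe sets of these genes are many, and some could also bind transcripts of the 309 ribosomal protein pseudogenes in the reference annotation. The 50 genes have 105 probe sets, 40 of them with the suffix that marks cross-hybridizing probes, and for 14 genes such a probe set was the brightest. None of the 105 passed, against 5.49% of all 45037 probe sets. Limma gave 12 of them an unadjusted p under 0.05, against 23.0% of all genes by their brightest probe set. In 13 genes with several probe sets of at least 10000, the changes differed by at most 0.13 on the log2 scale. Of the 16 further probe sets at 100 to 10000 that belong to bright genes, 9 had a log2 change above 0, with a median of 0.06, and some lay far from the brightest probe set in either direction. The dimmer probe set of Rps24 read 956, 1150 and 945 in WT and 682, 2326 and 1723 in BCS EPLMs, a log2 change of 0.47, against 0.07 for the brightest. Rps3 and Rps9 had dimmer probe sets with log2 changes of 0.32 and 0.34 and brightest ones at -0.00 and -0.02. In the other direction, a dimmer probe set of Rpl22 had a log2 change of -0.21 against 0.06 for the brightest, and one of Rpl37a of -0.16 against -0.07. Rpl12 and Rpl14 have 1 probe set each, under 10000, and the brightest of Rps6 was also under 10000. For these genes no bright probe set could be compared. A further 110 probe sets name several genes, a ribosomal protein gene among them, and 0 of these passed limma's test. Their median log2 change was 0.01, and 12 were at an unadjusted p under 0.05, against the same 23.0% of all genes.

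Mitochondrial ribosomal protein genes, which serve translation inside the organelle, had mostly positive changes. Of 76 measured, 6 rose and 0 fell, 71 had a log2 change above 0 and the median was 0.22, against a median of 0.003 and 26 of 50 above 0 for the cytoplasmic genes. The groups did not overlap in the upward direction for 34 of the 76, against 14.5% of all genes. Over all 18193 genes, 3.15% rose, 4.7% fell and 9398 had a log2 change above 0. Mrps28 went from 666 ± 44.2 (SD, n = 3) to 1098 ± 196, a log2 change of 0.71 (SE 0.16, limma adjusted p = 0.0396). Mrpl45 and Mrps22 rose by 0.69 and 0.59 on the log2 scale, with limma adjusted p of 0.0345 and 0.0304, and Mrpl3, Mrpl58 and Mrps18a by 0.41, 0.39 and 0.56. None of the 76 passed the methods' t-test after adjustment, which passed only 267 of all 45037 probe sets. The limma count was 0 without WT replicate 3, BCS replicate 2 or BCS replicate 3 and 11 without BCS replicate 1. In these fits, in the same order, 1430, 1401, 1591 and 2241 of all 45037 probe sets passed, in either direction. The lists differ in brightness, as 34 of the 50 cytoplasmic genes read at least 10000 and most mitochondrial ones were dimmer. The 10 cytoplasmic genes between 100 and 10000 had a median log2 change of 0.21, with 7 above 0. The difference between the cytoplasmic and the mitochondrial list was not tested, and neither was the part of brightness in it.

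Ribosome biogenesis factors, which process ribosomal RNA and assemble the subunits, had a median log2 change of 0.36 over 46 measured genes, with 43 above 0. Of the 46, 19 were at an unadjusted limma p under 0.05, against 23.0% of all genes and 35.7% of all genes between 100 and 10000 in intensity. Only Noc4l, a 40S assembly factor, rose, from 5577 ± 828 (SD, n = 3) to 7960 ± 304, a log2 change of 0.52 (SE 0.10, limma adjusted p = 0.021). The mean of its probe sets gave 0.87 and the most variable one 1.37 (limma adjusted p of 0.00105 and 0.000401), and eBayes without a trend ended the call (adjusted p = 0.0624). The Noc4l call was also lost without any 1 of the mice other than WT replicate 3 (limma adjusted p from 0.0529 to 0.0845). With all 6 mice the count of genes that rose was 1 of 46, against 3.15% of all genes. Without BCS replicate 1 the count was 11 of 46, and 2241 of all 45037 probe sets passed, in either direction. Nucleolin (Ncl) read 8683, 8465 and 6534 in WT and 11961, 18113 and 7882 in BCS EPLMs and did not pass, with a log2 change of 0.61 (SE 0.25, limma adjusted p = 0.242). The RNA polymerase I genes, which transcribe ribosomal RNA, had a median of 0.20 with 12 of 14 above 0. None of the 14 passed limma's test, and 4 were at an unadjusted p under 0.05, against 23.0% of all genes.

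The translation factors whose messages also begin with a TOP motif had small changes. None of 17 passed limma's test, and 2 were at an unadjusted p under 0.05, against 23.0% of all genes. The median log2 change was 0.08 and the range was -0.10 to 0.25. Eef1a1, the elongation factor that brings transfer RNA, had a log2 change of -0.03 (SE 0.04). Of the ribosomal proteins outside the symbol rule, Rpsa had a log2 change of 0.01 (SE 0.04) and Fau of -0.11 (SE 0.07).

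Among 14 regulators of mTORC1 and of TOP messages, Rptor rose and Mtor and Rps6ka3 fell. By the same test 3.15% of all genes rose and 4.7% fell. Rptor, which encodes the mTORC1 subunit raptor, read 631, 765 and 568 in WT and 1946, 1631 and 1504 in BCS EPLMs, a log2 change of 1.37 (SE 0.16, limma adjusted p = 0.00141). Mtor, the kinase, went from 2173 ± 62.1 (SD, n = 3) to 1484 ± 123, a log2 change of -0.55 (SE 0.11, limma adjusted p = 0.0201). The mean of all probe sets of each gene gave 0.46 for Rptor and -0.19 for Mtor, with limma adjusted p of 0.1 and 0.373. Rps6ka3, an S6 kinase of the RSK family, had a log2 change of -0.45 (SE 0.10, limma adjusted p = 0.0408), and its call was lost without any 1 of the 6 mice (limma adjusted p from 0.0656 to 0.126). The Mtor call was lost without any of the 3 WT mice or BCS replicate 2, with log2 changes from -0.58 to -0.48.

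**Figure D5:**
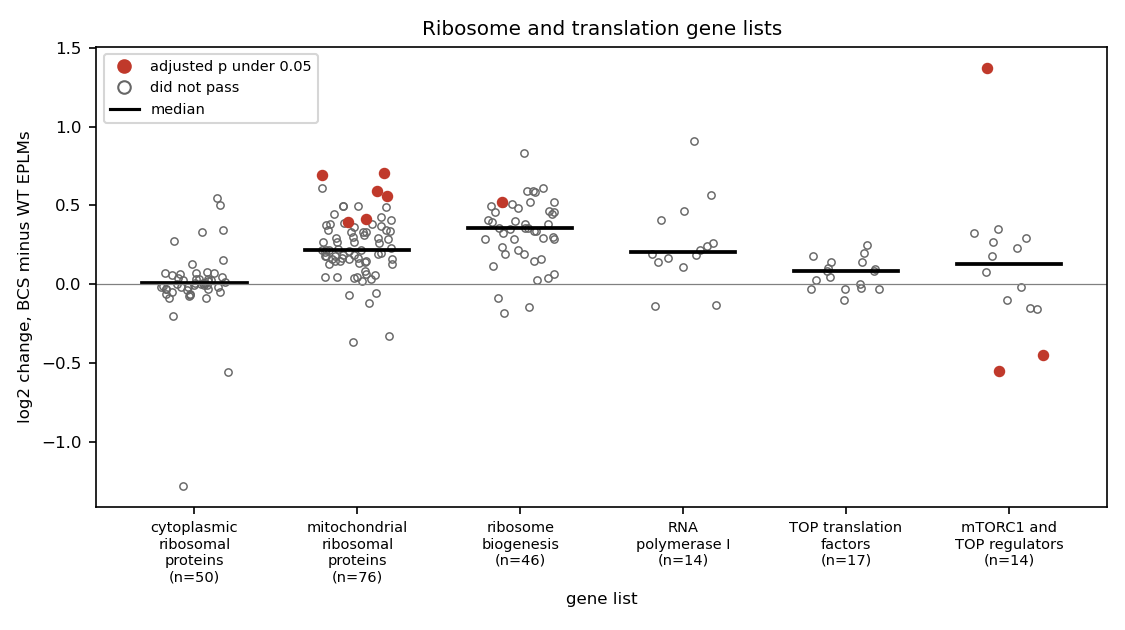
Log2 change, BCS minus WT EPLMs, of each gene in 6 lists by its brightest probe set, with genes at a limma adjusted p under 0.05 in red and the median as a line. The cytoplasmic ribosomal protein genes center on 0 with 0 of 50 passing, and the medians of the mitochondrial ribosomal protein and ribosome biogenesis genes lie at 0.22 and 0.36. The lists differ in brightness, and the 10 cytoplasmic genes between 100 and 10000 in intensity had a median of 0.21.

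The labels' gate and the mouse OBF1 gene were checked against the arrays. Kit and Cd93, both part of the gate, had log2 changes of -0.01 (SE 0.14) and 0.29 (SE 0.14), while the B220 gene Ptprc fell, with a log2 change of -0.40 (limma adjusted p = 0.0101). Flt3 and Il7r were listed with them as genes present in EPLMs. Flt3 fell from 8531 ± 867 (SD, n = 3) to 3679 ± 566, a log2 change of -1.22 (SE 0.12, limma adjusted p = 0.00065). Il7r had a log2 change of -0.23 (SE 0.11, limma adjusted p = 0.328). The mouse OBF1 gene Pou2af1 read 6278, 7250 and 3400 in WT and 10784, 10858 and 10323 in BCS EPLMs. Its log2 change was 0.99 (SE 0.23, limma adjusted p = 0.0436). The transgene is a human cDNA, and whether this probe set reads it was not tested. By qPCR the paper found endogenous OBF1 RNA raised in BCS EPLMs but not detectable in WT EPLMs, which differs from the WT intensities here. Markers of other cells moved with genotype, as 5 of 6 B lineage genes rose and 7 of 7 plasmacytoid dendritic cell genes fell. The summed B lineage intensities ran from 23305 to 48243 in WT and from 70758 to 75015 in BCS EPLMs, and those of plasmacytoid dendritic cells from 80720 to 88528 and from 35880 to 46813. Of the NK cell genes 1 of 6 fell, and their sums ran from 8157 to 14529 in WT and from 1432 to 4143 in BCS EPLMs. That gene, Klrd1, made up most of the sum in every mouse but BCS replicate 2, where it was 1306 of 4143. The other 5 NK cell genes summed to 1256 to 6419 in WT and 346 to 2837 in BCS EPLMs, which overlap. None of the 7 myeloid or 4 erythroid genes passed limma's test, with 1 and 2 at an unadjusted p under 0.05, their summed intensities overlapped between the groups, and Elane, Hba-a1 and Epor lay at or below 20. Of the 5 T lineage genes Thy1 rose and Cd8a fell. Their sums, from 566 to 1212 in WT and from 1534 to 2004 in BCS EPLMs, were mostly Thy1, and the other 4 genes summed to 165 to 439 in WT and 87 to 108 in BCS EPLMs. In sorted bulk cells, fewer cells of a type and less RNA per cell cannot be told apart, and the part of cell composition in the ribosomal and mitochondrial values was not tested. The ratio of 3′ to 5′ signal, a sign of RNA quality, ran from 4.12 to 5.91 in WT and from 5.71 to 6.44 in BCS EPLMs for β-actin, and from 5.74 to 6.24 and from 4.97 to 6.01 for Gapdh. Its part in these values was not tested either.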

How the data were processed

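RNA of EPLMs sorted from 3 WT and 3 BCS mice was put on Mouse 430v2 GeneChips, with a single mouse on each, as stated in the labels and methods. The labels state a labeling protocol of 1 cycle, which differs from the methods. The authors deposited 1 table of GCRMA intensity values on a linear scale (GCRMA version and genome build not given in the sources used here). The 6 EPLM columns already shared 1 distribution. The 7 Large PreB arrays were not used. Part of the sorting gate is not reported here. Precision is limited by the number of arrays. No batch is given.

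Log2(intensity + 1) was modelled with limma 3.58.1 and statmod 1.5.0 under R 4.3.3 (lmFit, eBayes with an intensity trend), and p was Benjamini-Hochberg adjusted over 45037 probe sets, with 64 control features left out. The fit was tested on simulated data. The platform annotation gave 1 symbol for 34945 probe sets, several for 932 and none for 9160. Each gene was read by its brightest probe set with 1 symbol over the 6 arrays.

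The members and gene lists were chosen with earlier results of these data known. Named genes were the 5 highest and the 5 lowest fitted changes, a fixed set of stalk proteins, paralogs and well-studied members, and, from each further list, up to 3 of the genes that passed, taken by the size of their change. Rps10, Rps15, Rpl6, Rpl7l1, Rps3, Rps9, Rps24, Rpl37a, Klrd1, Thy1, Cd8a, Ncl, Eef1a1, Mrpl3, Mrpl58 and Mrps18a were named after their values were seen. Motifs were searched in the RefSeq promoter windows of GRCm38.p6. Alternatives were an offset of 16, eBayes without trend or with robust variances, arrayWeights, the methods' t-test, quantile normalization, centring, a filter on dim probe sets, the replicate number as a block, a gene's most variable probe set or the mean of its probe sets, stricter call rules and leaving out each array.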

Additional observations from a re-analysis of the deposited data

How the results depend on the processing

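None of the 50 genes fell under any alternative. None rose except without BCS replicate 1, where Rpl12 and Rps19bp1 rose, the latter not a ribosomal protein. In that fit 2241 of all 45037 probe sets passed, in either direction. The count of genes that rose thus ranged from 0 to 2 of 50 when 1 array was left out. The median log2 change ranged from 0.002 to 0.022 over the same fits, and the highest value was that without BCS replicate 1. With all probe sets of the members, or with the probe sets of several symbols added, both chosen after seeing the data, the count stayed at 0. Whether a replicate number marks a litter or day shared by a WT and a BCS array is not given. The deviations of same-numbered arrays correlated with 0.00563, 0.0962 and 0.104. WT replicate 1 correlated best with BCS replicate 2, and WT replicates 2 and 3 with the BCS array of the same number. Deviations from a mean of 3 arrays sum to 0, so these correlations cannot decide on a pairing. With the replicate number as a block, the lowest adjusted p of a member was 0.123 and 0 of 50 genes passed limma's test, with 6 at an unadjusted p under 0.05. Over the 169 genes of the further lists 8 rose and 2 fell, against 3.15% and 4.7% of all genes. The counts were 0 and 0 by the adjusted methods' t-test, which passed 267 of all 45037 probe sets, and 4 and 0 with the block. The filter on dim probe sets gave 21 that rose and tested fewer probe sets. The mean of the probe sets of a gene gave 0 that fell and the most variable probe set 1. Leaving out 1 array gave from 1 to 26 that rose, the most without BCS replicate 1, and from 0 to 1 that fell. The cause was not tested. Of the single named genes, 46 values lost their call, 2 gained one and 440 kept their side of the threshold, and none that passed changed sign. Low intensities limit what can be seen, as for Rps27 near the array median of 20 and for Rps16 well below it.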
